A study of Mus musculus with 2 samples.

Results

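The RNA of 7 genes of cholesterol synthesis was followed across the liver lobule in 1 mouse with wild-type AEG-1 (AEG-1-WT) and 1 with a mutated form (AEG-1-C75S). The genes are Hmgcs1, Idi1, Fdft1, Sqle, Lss, Cyp51 and Insig1. They were taken by symbol from the 19465 genes of the probe set, and the rule for taking them used no measured value, although earlier results of these data were known. The first 6 are enzymes of the pathway and Insig1 belongs to its control by sterol. None of the 7 takes up cholesterol, so the account below is one of synthesis and its control. Receptors and carriers of uptake are given further down as a separate list.

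Hepatocytes make cholesterol from acetyl-CoA, first by the mevalonate steps, then by joining isoprenoid units into squalene and closing squalene into the sterol ring. When sterol in the endoplasmic reticulum runs low, SCAP carries the SREBP transcription factors to the Golgi, where they are cut free and switch on the enzymes of the whole pathway. When sterol is plentiful, INSIG proteins hold the complex back, and the Insig1 gene is itself an SREBP target.

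Counts come from 10x Visium slides run on formalin-fixed, paraffin-embedded tissue, on which ligated probe pairs are captured on barcoded spots and counted by unique molecular identifiers (UMIs). Both animals were naïve females of 8 weeks and littermates from crosses between heterozygous mice, and the tissue came from the same liver lobe. The AEG-1-C75S mouse carries a CRISPR/Cas9 knock-in in which cysteine 75 of AEG-1, the residue that is palmitoylated, is replaced by serine, in all cells of the body. The AEG-1-WT mouse carries the normal allele. The sections are called C75S and WT from here on. Each genotype was 1 section of 1 animal, so that genotype, animal and section cannot be told apart and no test was possible. A spot holds several cells, and fewer cells of a type and less RNA per cell cannot be told apart either.

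After spots above 50000 UMIs were left out, 2309 spots with 42246988 UMIs remained in the WT section and 2163 spots with 41674347 UMIs in the C75S section. The median spot held 16830 and 18808 UMIs, and the 5th percentile was 11460 UMIs in WT but 6599 UMIs in C75S. Of the barcodes, 1896 occurred in both sections. The hepatocyte genes Alb, Apoa1, Apob and Ttr together gave 167984 CPM (a gene's UMIs over all UMIs of the same spots, times 1000000) in WT and 173092 CPM in C75S, so that the label of liver was met. The edited gene, Mtdh, gave 3143 UMIs in the WT and 3056 UMIs in the C75S section, which cannot check the label, since the positions of its probes are not given in the sources used here. Every interval given below is a 95% interval of counting error alone and leaves out the spread between animals.

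The promoters of the 3 members with the most UMIs in both sections are shown because SREBP factors act next to NF-Y and Sp1 at the promoters of this pathway. Each run is the 250 bases before the start of the gene, 5′ to 3′ in the direction of the gene, from RefSeq on GRCm38.p6. Capitals mark a match on either strand to CACNCCAC (the core of a sterol response element), CCAAT (the NF-Y box) or GGGCGG (the Sp1 box). No match overlapped another.
Hmgcs1, chr13:119690101-119690350, plus strand: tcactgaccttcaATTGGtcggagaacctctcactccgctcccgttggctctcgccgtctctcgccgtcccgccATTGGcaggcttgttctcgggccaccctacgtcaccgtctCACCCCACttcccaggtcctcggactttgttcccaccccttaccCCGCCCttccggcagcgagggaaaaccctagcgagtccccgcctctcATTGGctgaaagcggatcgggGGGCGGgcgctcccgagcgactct
Cyp51, chr5:4104698-4104947, minus strand: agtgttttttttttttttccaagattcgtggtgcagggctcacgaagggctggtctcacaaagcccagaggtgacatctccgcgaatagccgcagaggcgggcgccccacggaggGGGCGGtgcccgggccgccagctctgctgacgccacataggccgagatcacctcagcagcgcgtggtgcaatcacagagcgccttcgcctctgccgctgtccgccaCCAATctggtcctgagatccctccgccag
Insig1, chr5:28071162-28071411, plus strand: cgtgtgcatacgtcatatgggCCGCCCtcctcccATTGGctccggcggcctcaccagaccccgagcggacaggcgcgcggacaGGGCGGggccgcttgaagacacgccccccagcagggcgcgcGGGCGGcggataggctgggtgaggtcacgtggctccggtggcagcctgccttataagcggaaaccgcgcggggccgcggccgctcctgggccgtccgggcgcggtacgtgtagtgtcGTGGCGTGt

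An entry was at hand for 5 of the 7 members, namely these 3, Idi1 and Lss. CCAAT and GGGCGG each occurred in 5 of the 5 windows, and in 33.8% and 32.7% of the windows of 32851 promoters. CACNCCAC occurred in 2 of the 5, once in Hmgcs1 at 136 to 129 bases before the start and once in Insig1 at 9 to 2 bases before it, and in 5.29% of all windows. Such a match is a description of the letters and not of a binding site. No other form of the core was looked for, so a window without a match is not shown to lack a sterol response element.

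Over the whole sections the 7 members split. Hmgcs1 and Cyp51 were higher in C75S, and Fdft1, Lss and Insig1 were lower. A member was counted as past the fold when its log2 ratio of CPM, C75S over WT, was at least 0.3 in size. By that measure 3 of the 7 members were lower (Fdft1, Lss and Insig1), and 0 were higher. With centring on the median gene, TMM factors or totals without the 20 most abundant genes, 1 was lower (Fdft1) and 1 higher (Cyp51). No share of all genes was computed for those scalings. Without them, 14.5% of the 11253 genes with at least 100 UMIs were lower and 7.3% higher by the same measure. The median log2 ratio of the members was -0.29, and that of all genes -0.05. The members' median is the value of Idi1, the sparsest of them, with an interval from -0.69 to 0.10. Summed, the members gave 1024 CPM in WT and 985 CPM in C75S, a log2 ratio of -0.06 (interval -0.08 to -0.04) that lies at the shift of the median gene.

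The first step in the group is catalysed by Hmgcs1, the cytosolic HMG-CoA synthase. It gave 12419 UMIs or 294 CPM in WT and 13364 UMIs or 321 CPM in C75S. Its log2 ratio was 0.13 (0.09 to 0.16), and it was between 0.09 and 0.18 under 10 other ways of filtering, weighting and scaling the spots. Idi1, the isomerase of the isoprenoid units, was barely counted, with 123 UMIs in WT and 99 UMIs in C75S. Its log2 ratio of -0.29 had an interval from -0.69 to 0.10, so no difference was detectable at this depth.

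Of the squalene enzymes, Fdft1 was lower in C75S and Sqle differed little. Fdft1, the squalene synthase, fell from 1100 UMIs (26.0 CPM) in WT to 828 UMIs (19.9 CPM), a log2 ratio of -0.39 (-0.52 to -0.26). Sqle, the squalene epoxidase, gave 4551 UMIs (108 CPM) and 4221 UMIs (101 CPM), a log2 ratio of -0.09 (-0.15 to -0.03).

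The enzymes that close and trim the sterol ring went opposite ways. Lss, the lanosterol synthase, gave 1724 UMIs (40.8 CPM) in WT and 1352 UMIs (32.4 CPM) in C75S, with a log2 ratio of -0.33 (-0.43 to -0.23). Cyp51, the lanosterol demethylase that acts next in the pathway, gave 6888 UMIs (163 CPM) and 8158 UMIs (196 CPM), with a log2 ratio of 0.26 (0.22 to 0.31). The intervals of these consecutive enzymes lay on opposite sides of 0, and each kept its sign under the 10 alternatives (Lss -0.35 to -0.21, Cyp51 0.24 to 0.33).

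Insig1, the INSIG gene among the members, was lower in C75S, at 13017 UMIs (312 CPM) against 16437 UMIs (389 CPM) in WT. Its log2 ratio was -0.32 (-0.35 to -0.28). Insig2, the other INSIG gene, was higher in C75S, at 6150 UMIs against 3631 UMIs, with a log2 ratio of 0.78 (0.72 to 0.84). The transcription factor gene Srebf2 was at 0.02 (-0.08 to 0.13), Srebf1 at -0.17 (-0.26 to -0.08) and Scap at -0.02 (-0.08 to 0.04). Insig2 was past the fold in this list of 6 sensing and processing genes, where 7.3% of all genes were higher. The other 5, with Mbtps1 and Mbtps2 among them, were not past it.

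**Figure D1:**
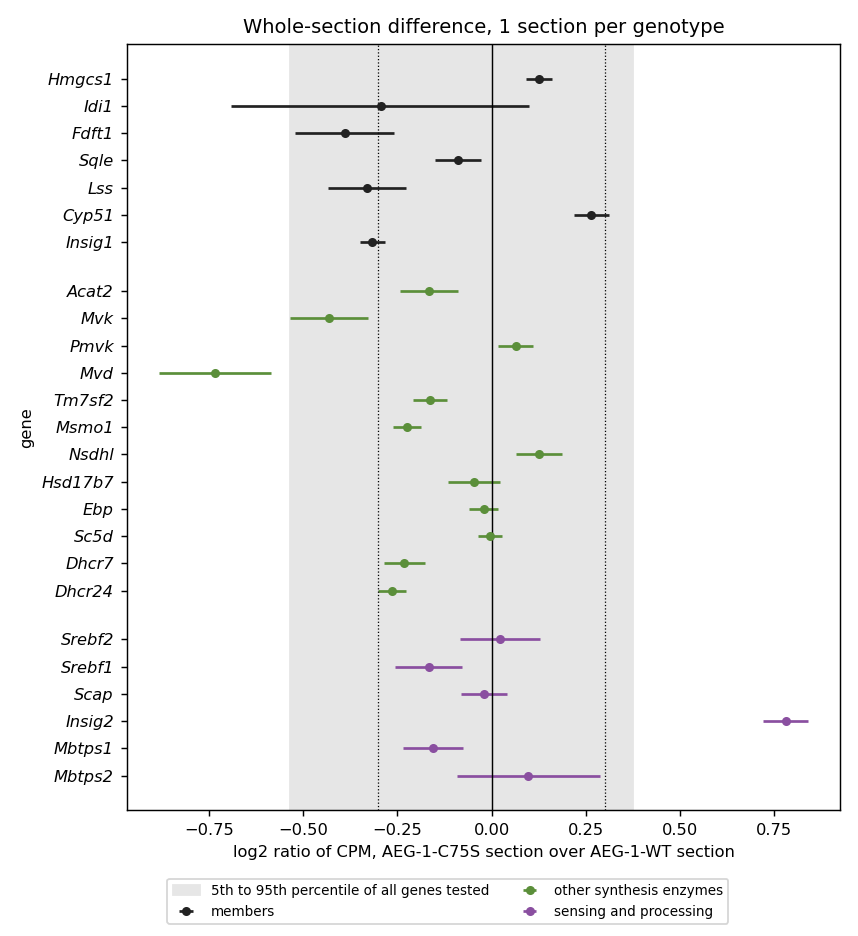
Log2 ratio of CPM in the C75S section over the WT section (x axis) for each member, each other synthesis enzyme and each sensing and processing gene (y axis), with 95% intervals of counting error. The grey band spans the 5th to 95th percentile of all genes tested, and dotted lines mark 0.3 in either direction. Cyp51 and Hmgcs1 lie right of 0, Fdft1, Lss and Insig1 lie left of it, and Insig2 at 0.78 and Mvd at -0.73 lie outside the band.

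Of 12 other enzymes of the pathway 2 were past the fold, both lower in C75S, where 14.5% of all genes were lower, and the median log2 ratio was -0.16, against -0.05 for all genes. The 2 were Mvk, the mevalonate kinase, at -0.43 (-0.54 to -0.33), and Mvd, the mevalonate diphosphate decarboxylase, at -0.73 (-0.88 to -0.59). Nsdhl, which acts after Cyp51, was at 0.13 (0.07 to 0.19) and Msmo1 at -0.22 (-0.26 to -0.19). None of 8 genes of uptake and intracellular transport was past the fold, with values from -0.18 for Mylip to 0.17 for Lipa, the lysosomal lipase. Of 8 genes of the sterol receptor LXR, efflux and storage, 3 were higher, against 7.3% of all genes, and 0 were lower. The 3 were Abcg8 at 0.40 (0.35 to 0.45), Abcg1 at 0.39 (0.16 to 0.63) and Soat1 at 0.47 (0.25 to 0.69). Abcg1 and Soat1 were sparse, with 271 and 304 UMIs in WT and 351 and 415 UMIs in C75S. The rest of this list ran from -0.10 for Nr1h3 to 0.19 for Soat2, with Abcg5 at 0.10 (0.04 to 0.16).

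Larger differences stood in some genes of the neighbouring pathways, in both directions. Past the fold, 2 of 5 bile acid synthesis genes were higher and 1 lower, with a list median of 0.04. Of 6 fatty acid synthesis genes tested, 2 were higher and 2 lower, with a median of -0.08. Among all genes 7.3% were higher and 14.5% lower. Cyp7a1, the rate-limiting enzyme of bile acid synthesis from cholesterol, had 7796 UMIs in WT and 2815 UMIs in C75S, a log2 ratio of -1.45 (-1.51 to -1.39). Nr0b2, which encodes the repressor SHP, was at 1.03 (0.95 to 1.11), and Cyp8b1, which makes cholic acid precursors, at 0.77 (0.50 to 1.04) on 180 and 302 UMIs. In fatty acid synthesis, Scd1 was at 1.01 (0.99 to 1.03) and Me1 at 0.32 (0.24 to 0.39), while Thrsp was at -1.63 (-1.71 to -1.55) and Acly at -0.34 (-0.38 to -0.29).

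Clock genes, several of which swing with time of day in the liver, also differed between the sections. Past the fold 3 of 11 were higher, against 7.3% of all genes, and 6 of 11 lower, against 14.5%. Arntl was at 1.70 (1.49 to 1.92) and Per2 at -1.97 (-2.15 to -1.79). The time of collection is not given in the sources used here, and the part of these genes in the members' values was not tested. Markers of other cells moved too. The Kupffer cell markers summed to 866 CPM in WT and 1159 CPM in C75S, a log2 ratio of 0.42 (5 of 5 higher, from 0.10 to 1.62). Connective tissue markers summed to 176 and 89.6 CPM, a log2 ratio of -0.97 (5 of 5 lower, from -1.58 to -0.68), and blood markers to 611 and 404 CPM, a log2 ratio of -0.59 (3 of 3 lower). Stellate cell markers were at 0.35 (4 of 4 higher) and cholangiocyte markers at -0.45 (4 of 4 lower), and no marker was at 0 UMIs. Their part in the members' values was not tested.

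Zonation was read within each section. The hepatocytes of a lobule differ from the portal vein, where blood enters, to the central vein, where it leaves. Spots were ranked by the UMIs of Cyp2f2, a periportal gene, over those of Cyp2e1, a pericentral gene, each plus 1, and split into 5 layers of equal size, from layer 1, the most periportal, to layer 5, the most pericentral. A layer held 461 or 462 spots in WT and 432 or 433 spots in C75S. The median ratio of the markers was close between the sections in layer 1 (1.09 and 1.08) but not in layer 5 (0.0376 in WT and 0.0600 in C75S), so that the same layer is not quite the same place in both.

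In the WT section the summed members were higher toward the central end, and in the C75S section they were nearly flat. The sum rests mostly on Insig1, Hmgcs1 and Cyp51, with 16437, 12419 and 6888 of its 43242 UMIs in the whole WT section. The summed members rose along the layers from 933 CPM in layer 1 through 997, 1050 and 1039 CPM to 1096 CPM in layer 5 in WT. In C75S the summed members gave 989, 954, 1012, 986 and 985 CPM. The log2 ratio of layer 1 over layer 5 was -0.23 (-0.28 to -0.19) in WT and 0.01 (-0.04 to 0.05) in C75S. Since the median gene itself had -0.13 in WT and -0.10 in C75S, the summed members stood at -0.11 and 0.11 relative to it. With an axis drawn from other zonation markers, and no centring, the summed members were at -0.09 in WT and 0.04 in C75S.

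Past the fold in WT were 3 of the 6 members with at least 100 UMIs in the pair of layers, all of them lower in layer 1, against 22.1% of 8611 genes, and 0 were higher, against 7.05%. In C75S 0 of the 6 were lower in layer 1, against 19.1% of 8602 genes, and 1 was higher (Sqle), against 6.53%. Idi1, with 45 UMIs in the pair of layers in WT and 43 UMIs in C75S, was not evaluated.

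Hmgcs1 gave 247, 273, 308, 307 and 334 CPM from layer 1 to layer 5 of WT, a log2 ratio of layer 1 over layer 5 of -0.44 (-0.52 to -0.35). In C75S Hmgcs1 gave 316, 307, 323, 328 and 330 CPM, a log2 ratio of -0.06 (-0.14 to 0.01). The sections met at the central end and parted at the portal end, where WT was lower.

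Cyp51 gave 135, 158, 166, 177 and 178 CPM in WT, with a log2 ratio of layer 1 over layer 5 of -0.39 (-0.51 to -0.28). It gave 183, 193, 208, 200 and 195 CPM in C75S, with a log2 ratio of -0.10 (-0.20 to 0.01). Cyp51 was higher in C75S in each of the 5 layers.

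Fdft1 gave 22.6, 23.4, 25.7, 25.8 and 32.9 CPM in WT, with a log2 ratio of layer 1 over layer 5 of -0.54 (-0.82 to -0.26). It gave 21.6, 17.1, 19.5, 19.1 and 22.3 CPM in C75S, with a log2 ratio of -0.05 (-0.36 to 0.26). The sections were nearest in layer 1, with a log2 ratio of C75S over WT of -0.07, but that value was -0.49 (-1.34 to 0.33) after thinning every spot to 3000 UMIs, and layer 2 was already at -0.45. Lss was at -0.28 (-0.51 to -0.06) in WT and -0.08 (-0.32 to 0.17) in C75S.

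Insig1 was flatter than these enzymes, from 371 CPM in layer 1 to 405 CPM in layer 5 of WT and from 322 CPM to 316 CPM in C75S. Its log2 ratios of layer 1 over layer 5 were -0.13 (-0.20 to -0.05) and 0.02 (-0.05 to 0.10), and the first was 0.00026 once centred on the median gene. Insig1 was lower in C75S in each of the 5 layers.

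Sqle ran the other way. It fell from 117 CPM in layer 1 to 98.1 CPM in layer 5 of WT and from 112 CPM to 83.5 CPM in C75S. The log2 ratios of layer 1 over layer 5 were 0.25 (0.12 to 0.39) and 0.42 (0.28 to 0.57), so that the squalene epoxidase was periportal in both sections while squalene synthase was pericentral in WT.

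**Figure D2:**
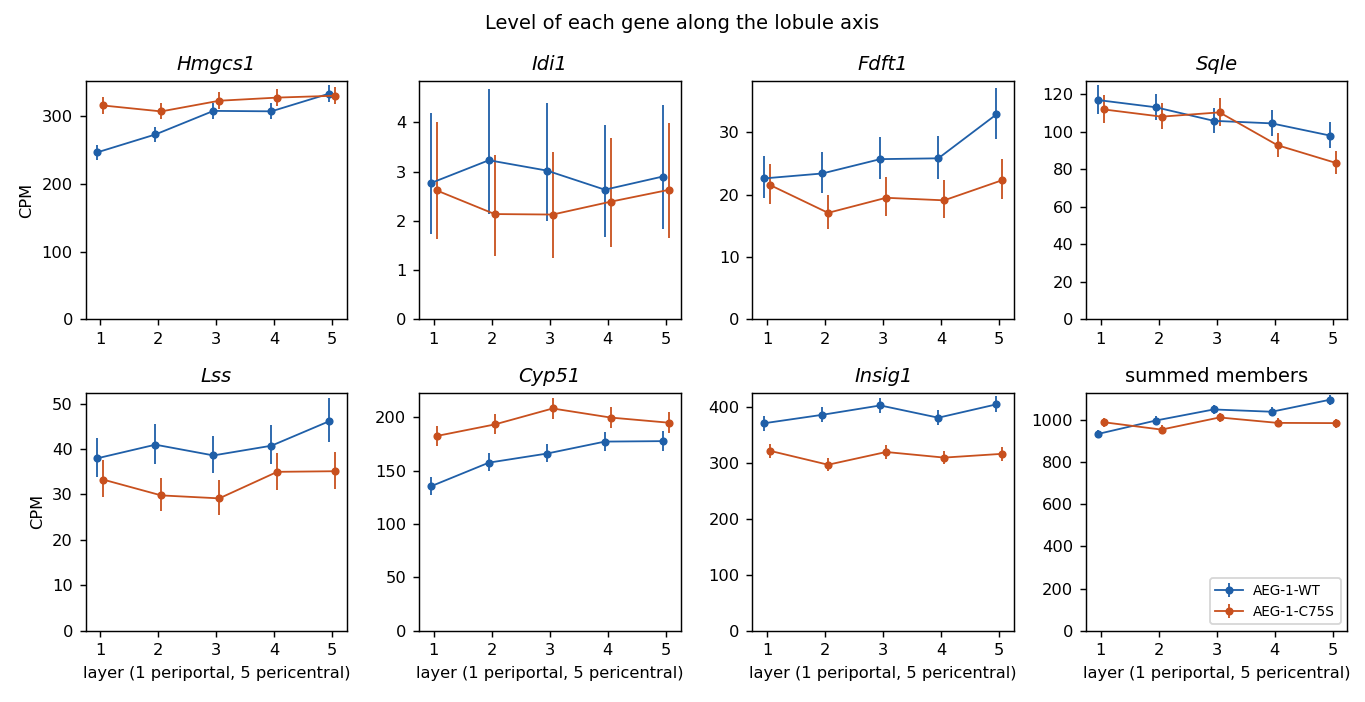
CPM of each member and of the summed members (y axis, from 0, with its own scale in each panel) against the layer of the spots (x axis, 1 most periportal to 5 most pericentral) in the WT and C75S sections, with 95% Poisson intervals. Hmgcs1 and Cyp51 climb toward the central end in WT and are flatter in C75S, and Sqle falls in both.

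The difference between the gradients, C75S minus WT, was above 0 for 6 of the 6 members evaluated, as it was for 54.1% of 8392 genes. It was 0.49 (0.07 to 0.91) for Fdft1, 0.37 (0.26 to 0.49) for Hmgcs1 and 0.30 (0.14 to 0.45) for Cyp51. For Lss it was 0.20 (-0.13 to 0.54), for Sqle 0.17 (-0.03 to 0.37) and for Insig1 0.15 (0.04 to 0.26). At least 0.3 was reached by 2 of the 6 (Hmgcs1 and Fdft1), against 10.1% of all genes, and -0.3 or less by 0, against 8.46%, and the median was 0.25, against 0.02. Hmgcs1, Fdft1 and Cyp51 lay above 93.3%, 96.7% and 89.8% of the genes. For the summed members the difference was 0.24 (0.17 to 0.30), and under 12 alternatives it ran from 0.12 to 0.28, while that of Sqle ran from -0.0019 to 0.37.

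Most of the 12 other enzymes of the pathway were pericentral in WT. There 9 of the 12 were lower in layer 1 past the fold, against 22.1% of all genes, and 0 were higher, against 7.05%. The median log2 ratio was -0.47, against -0.13 for all genes. In C75S 1 was lower (Hsd17b7 at -0.34), against 19.1% of all genes, and 1 higher (Mvd at 0.30), against 6.53%. The median in C75S was -0.20, against -0.10 for all genes. The difference of the gradients had a median of 0.24 over the 12. It was 0.62 (0.15 to 1.09) for Mvd, 0.51 (0.18 to 0.85) for Mvk and 0.40 (0.20 to 0.60) for Nsdhl. The medians of other lists were -0.0036 for the sensing and processing genes, -0.03 for uptake and transport and -0.08 for fatty acid synthesis. They were 0.04 for LXR, efflux and storage, 0.06 for bile acid synthesis and 0.15 for the clock genes. Single genes of these lists went both ways, with Scd1 at 0.23 (0.16 to 0.29), Abcg8 at 0.27 (0.11 to 0.44) and Acly at -0.16 (-0.32 to -0.01). Blood markers changed direction along the same axis, from -0.44 in WT to 0.38 in C75S, and connective tissue markers went from 0.83 to -0.12. Cholangiocyte markers went from 3.10 to 2.06 and sinusoidal endothelium markers from -0.39 to -0.20. Of the hepatocyte zonation markers, the summed pericentral ones flattened from -2.66 to -2.44, while the summed periportal ones were at 1.48 and 1.47. Single periportal markers went both ways, with Cyp2f2 from 2.72 to 2.29 but Arg1 from 0.80 to 0.95. Cyp2e1 and Cyp2f2 define the axis. The part of all these markers in the members' gradients was not tested.

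**Figure D3:**
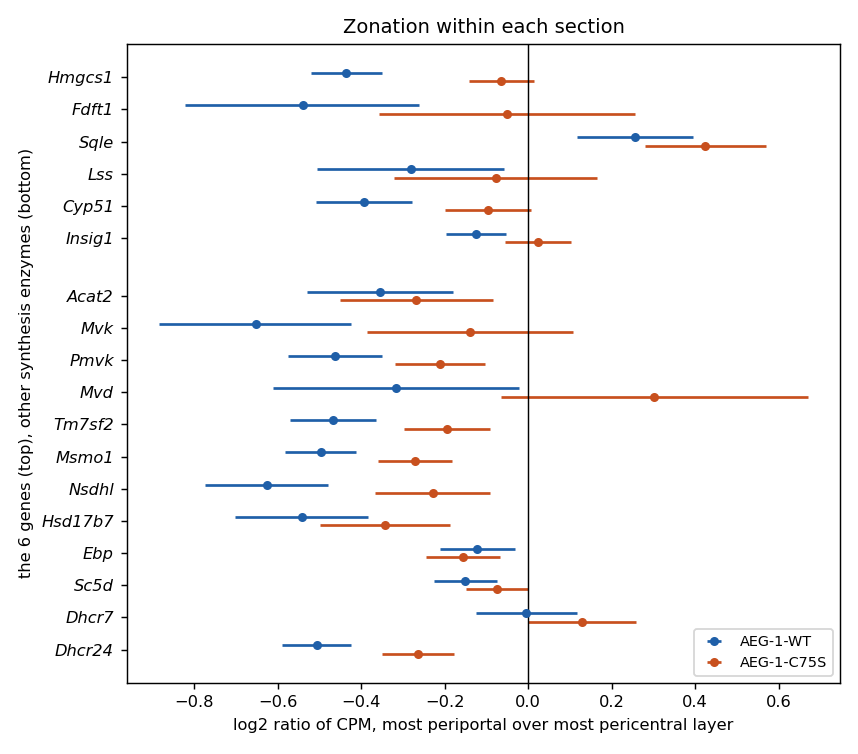
Log2 ratio of CPM in the most periportal over the most pericentral layer (x axis) for 6 members and 12 other synthesis enzymes (y axis) in the WT and C75S sections, with 95% intervals of counting error. Most WT points lie left of the C75S points, as for Hmgcs1 (-0.44 and -0.06), and Ebp is an exception (-0.12 and -0.16).

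Compared between the sections layer by layer, the ratio of C75S to WT was lower at the central than at the portal end for the 6 members evaluated, which is the difference of the gradients seen from the other side. The log2 ratio of C75S over WT for Hmgcs1 was 0.36 in layer 1, 0.17, 0.07 and 0.09 in the next, and -0.01 in layer 5. For Cyp51 it was 0.43, 0.30, 0.33, 0.17 and 0.13. For Fdft1 it was -0.07, -0.45, -0.40, -0.44 and -0.56. In layer 1, 2 of the 6 members evaluated were higher past the fold (Hmgcs1 and Cyp51) and 0 lower, against 10.7% and 13.2% of 8567 genes. In layer 5, 0 were higher and 3 lower (Fdft1, Lss and Insig1), against 9.51% and 14% of 8651 genes. The summed members were at 0.08 (0.04 to 0.13) in layer 1 and at -0.15 (-0.20 to -0.11) in layer 5. Insig2 showed no such slope, with 0.83 in layer 1 and 0.82 in layer 5.

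**Figure D4:**
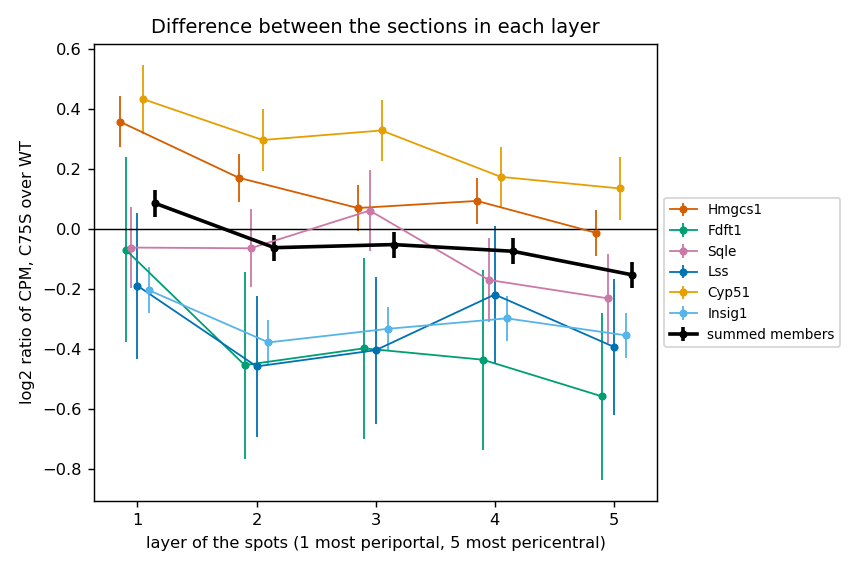
Log2 ratio of CPM, C75S over WT (y axis), in each layer of the spots (x axis, 1 most periportal to 5 most pericentral) for 6 members and their sum, with 95% intervals of counting error. Cyp51 and Hmgcs1 lie highest at the portal end, at 0.43 and 0.36, and the summed members go from 0.08 to -0.15.

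Single spots held few UMIs of each member. In WT, Insig1 had a median of 6 UMIs per spot and at least 1 UMI in 99.4% of spots, Hmgcs1 a median of 5 UMIs in 98.1% and Cyp51 a median of 3 UMIs in 91.7%. Fdft1 reached 37.2% of spots in WT and 30.3% in C75S, and Idi1 5.11% and 4.48%. The spread of the summed members over spots, as a multiple of the Poisson variance at each spot's depth and layer, was 1.47 in WT and 1.21 in C75S.

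To see whether the members varied together within layers, each member was compared between spots rich and spots poor in the other members. Within each layer, the spots were split into 5 groups by the share of the other 6 members and the highest and lowest group were taken, which gave 460 spots on each side in WT and 430 in C75S. The log2 ratio of rich over poor in WT was 0.42 (0.33 to 0.50) for Hmgcs1, 0.42 (0.19 to 0.65) for Lss and 0.31 (0.03 to 0.59) for Fdft1. Cyp51 and Insig1 were both at 0.28, Sqle at 0.16 (0.02 to 0.30) and Idi1 at 0.08 (-0.74 to 0.91). In C75S the ratios were smaller, at 0.13 (0.05 to 0.22) for Hmgcs1 and 0.12 (0.02 to 0.22) for Cyp51, and the intervals of the other 5 members included 0. Without the most pericentral layer the intervals of Hmgcs1 (0.07, -0.02 to 0.17) and Cyp51 (0.10, -0.01 to 0.22) in C75S and of Sqle in WT (0.10, -0.05 to 0.25) included 0 as well. Rich spots were a little deeper, with a median of 17856 against 15736 UMIs in WT and 18154 against 16934 UMIs in C75S when all 7 members were used. The part of depth was not tested.

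The genes that separated member-rich from member-poor spots most, over both sections, were the following. Highest were the haemoglobin genes Hbb-bs at 0.54 (0.48 to 0.59) and Hba-a2 at 0.51, followed by Fasn, the fatty acid synthase, at 0.46, Lonp1 at 0.41 and Gclm at 0.39. Lowest were Slc1a2, a glutamate transporter, at -1.03 (-1.12 to -0.95) and Oat, ornithine aminotransferase, at -0.66, then Aif1, Cd163 and Npr2 at -0.48, -0.48 and -0.47. Among the 3618 genes compared, the 5th to 95th percentile ran from -0.18 to 0.18. Summed markers of connective tissue were at -0.58 and of stellate cells at -0.26. Those of Kupffer cells were at -0.21, although Fabp5 was at 0.22, and those of sinusoidal endothelium at -0.12. Summed blood markers were at 0.52 and cholangiocyte markers at 0.09 (-0.01 to 0.19). Taken by section, WT before C75S, the sums were -0.80 and -0.13 for connective tissue and 0.76 and 0.23 for blood. They were -0.31 and -0.22 for stellate cells, -0.25 and -0.19 for Kupffer cells and -0.20 and -0.03 for sinusoidal endothelium. Cholangiocyte markers were at 0.16 and -0.01. The part of these cells in the joint variation of the members was not tested. Slc1a2 and Oat are known from the hepatocytes that ring the central vein.

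The ring was therefore looked at by itself, a step chosen after those values had been seen. Within the most pericentral layer of each section, spots were ranked by the share of UMIs of Oat, Slc1a2 and Rhbg and split again into 5 groups. The summed members rose from the ring-rich to the ring-poor group through 882, 1039, 1088, 1197 and 1278 CPM in WT. The summed members in C75S gave 868, 903, 1016, 1078 and 1091 CPM. In both sections the ring-rich group lay below the CPM of the summed members in layer 1, the most periportal. The log2 ratio of ring-rich over ring-poor was -0.53 (-0.63 to -0.44) in WT and -0.33 (-0.43 to -0.23) in C75S. Since Oat and Slc1a2 were taken because they were low in member-rich spots, these values and the counts that follow describe the same relation and are no independent support for it.

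In WT 5 of the 6 members with at least 100 UMIs in the 2 groups were lower in the ring-rich group past the fold, against 6.63% of 3924 genes, and 0 were higher, against 18.7%. In C75S 3 of 5 were lower (Sqle, Lss and Cyp51), against 6.95% of 3929 genes, and 0 higher, against 15.8%. Hmgcs1 fell just short of the fold there. Hmgcs1 had 260 CPM in the ring-rich and 407 CPM in the ring-poor group of WT, a log2 ratio of -0.65 (-0.83 to -0.47), and 298 and 367 CPM in C75S, a log2 ratio of -0.30 (-0.47 to -0.13). Cyp51 was at -0.54 in WT and -0.42 in C75S. Sqle was at -0.63 and -0.43. Scd1, the fatty acid desaturase, was lower in the same spots, at -0.48 and -0.32, whereas Cyp7b1, of bile acid synthesis, was higher, at 0.72 and 0.92.

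The ring-rich spots also held more blood (log2 ratio of the markers 1.27 in WT and 0.68 in C75S) and more connective tissue (1.75 and 1.37). Their part in the fall of the members was not tested. Without the tenth of spots richest in duct and connective tissue genes, a step that does not address blood, the ratio of the summed members was -0.56 and -0.37. Blood stood opposite in the 2 comparisons, since it was higher in the member-rich spots of the whole axis and in the member-poor spots of the ring. Median depth in the ring-rich and ring-poor groups was 16565 and 16398 UMIs in WT and 18725 and 17050 UMIs in C75S. With every spot thinned to 3000 UMIs and the groups kept, the summed members were at -0.51 (-0.75 to -0.26) in WT and -0.19 (-0.45 to 0.07) in C75S. With the groups drawn again from the thinned counts the ratios were -0.17 (-0.41 to 0.08) and -0.19 (-0.44 to 0.07).

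**Figure D5:**
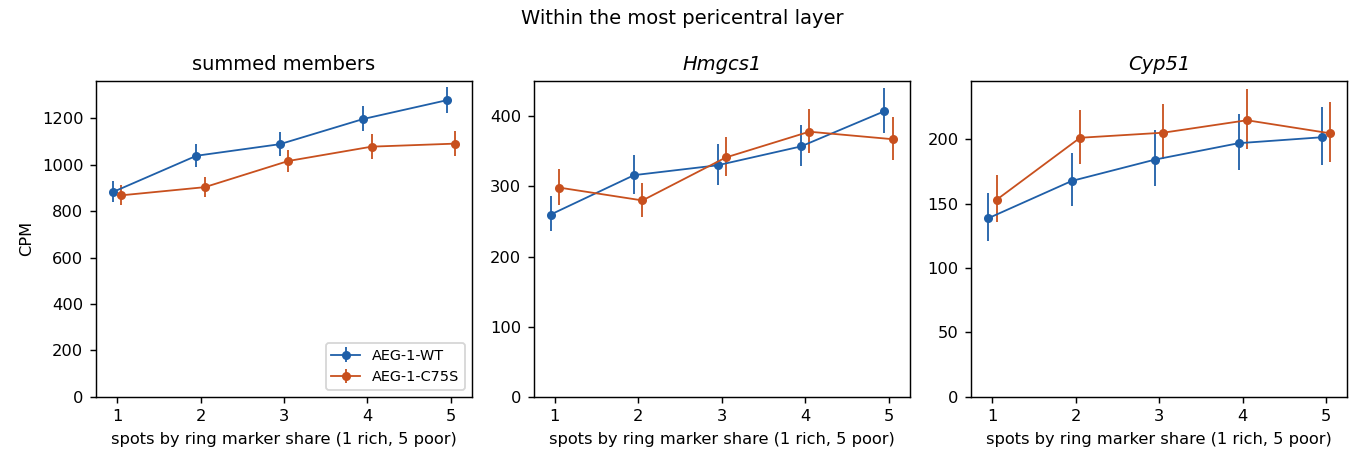
CPM of the summed members, Hmgcs1 and Cyp51 (y axis, from 0) in 5 groups of spots of the most pericentral layer, ordered by the share of Oat, Slc1a2 and Rhbg (x axis, 1 richest to 5 poorest), in both sections with 95% Poisson intervals. The summed members go from 882 to 1278 CPM in WT and from 868 to 1091 CPM in C75S.

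Across the 10 sums of 2 sections by 5 layers, Hmgcs1, Cyp51, Fdft1, Lss and Insig1 formed 2 patterns. They are described by Pearson's r of log2 CPM, with no test because the points share their libraries. Each r holds the difference between the sections as well as the gradient along the layers. Hmgcs1 ran with Cyp51 (r = 0.88). Fdft1, Lss and Insig1 ran with each other (r from 0.87 to 0.90), and Cyp51 ran against Insig1 (r = -0.66). Sqle ran with neither, at r = -0.66 with Hmgcs1, -0.52 with Cyp51 and 0.25 with Insig1. Idi1 was too sparse to be placed. The genes outside the group that were most like the summed members, among 4553 genes, included Timmdc1, Bap1, Vnn3 and Pdhx, with r from 0.91 to 0.92.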

How the data were processed

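The deposited tables hold raw UMI counts per gene and spot, not normalized, which the authors obtained by running Space Ranger 2.0.1 against mm10 with its mouse probes, and 0 columns belonged to other samples. Counts are tied to probes, so levels of different genes were not compared. Spots above 50000 UMIs were left out. UMIs were summed over spots and divided by their total (CPM), with an exact Poisson interval on each sum, and each log2 ratio carries an exact binomial one, given both sums. Intervals for gradient differences combine those of both sections. Each section is 1 animal, spots are not replicates, and no test was made. The intervals of the log2 ratios were tried on simulated Poisson counts. Such counts are what the intervals assume, so the wider spread over spots was not covered. The intervals of the gradient differences were not simulated. All 7 members are described, and list genes are named where past the fold of 0.3. The members and lists, and the tests, were chosen with earlier results of these data known. Some genes of the lists and rules are not reported here. Spot coordinates were not used here. Alternatives were no spot filter, the methods' filter (100 to 7000 genes), giving each spot equal weight, TMM factors (edgeR 4.0.16), dropping the 20 most abundant genes from the totals, centring on the median of all genes, thinning to 3000 UMIs, spots matched on total UMIs in 10 bins, an axis from Hal, Gls2 and Hsd17b13 over Cyp1a2 and Oat, layers with shared boundaries, 3 layers, removal of spots rich in duct and connective tissue genes, a fold of 0.5 and a minimum of 500 UMIs. Ring markers without Oat and thinning with the groups kept were added after the data had been seen. Tools were R 4.3.3, python 3.11.15, scipy 1.17.1, numpy 2.4.6 and pandas 2.3.3.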

Additional observations from a re-analysis of the deposited data

Results flagged for a closer look

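The difference of the summed members between the sections ran opposite ways at the ends of the lobule, with log2 ratios of C75S to WT of 0.084 (0.04 to 0.13) in the most periportal layer and -0.15 (-0.20 to -0.11) in the most pericentral layer. The same rule was applied to each member and flagged none of them. Cyp51 was above 0 in 5 of 5 layers and Insig1 below 0 in 5 of 5, so that the sum adds unlike genes. Under 13 alternatives the sum ran from 0.024 to 0.15 in the most periportal layer. The difference between the ends was not tested, for want of replicate animals, and the intervals hold counting error alone.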

How the results depend on the processing

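The difference of the summed members over the whole sections, -0.06, changed with the scaling. It was -0.0055 when centred on the median gene, -0.011 with totals without the 20 most abundant genes, 0.00053 with TMM factors and -0.079 with spots matched on total UMIs. Centring, totals without those genes and TMM each left 1 member lower and 1 higher (Cyp51) past the fold in place of 3 and 0. Thinning gave 1 higher in either form. No share of all genes was computed for these scalings or for thinning. A fold of 0.5 left 0 in all and 0 lower, where 2.8% of 11253 genes were higher and 5.79% lower. Over 12 alternatives the number lower ran from 0 to 4 and the number higher from 0 to 1. In the most periportal layer the summed members were at 0.030 with the axis from other markers, 0.024 with 3 layers and 0.15 after thinning with the groups kept. In the most pericentral layer they were at -0.095 with that axis and -0.21 with spots matched on depth. The portal over central ratio of WT was -0.11 when centred, -0.11 without the 20 genes, -0.13 with TMM, -0.089 with the axis from other markers, -0.16 with 3 layers and -0.28 after thinning with the groups kept. That of C75S was 0.11, 0.12 and 0.10 under the first 3 of these. Of the single members whose interval lay to 1 side of 0, those that changed sign were Insig1 in the most periportal layer (0.023 after thinning with the groups kept), Insig1 along the axis of WT (0.00026 when centred), Sqle between the ring groups of WT (0.25 after thinning) and Insig1 between those of C75S (0.075 and 0.081 after thinning, the second with the groups kept). Some members whose interval included 0 changed sign too, among them Fdft1 between the ring groups of C75S (1.57 after thinning). Thinning leaves a small part of the UMIs, and the cause of the changes was not tested. Idi1 was too sparse for any zonal value. No paired analysis was possible because each genotype had 1 section, and leaving out a section was not possible for the same reason.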
